A study of Mus musculus with 12 samples.

Results

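Translation factors are the proteins that bring the ribosome to the start codon of an mRNA and drive it along the coding sequence. The genes described here are the protein-coding genes of the deposited comparison tables whose symbols begin with Eif or Eef and a digit, leaving out the sex chromosome pair Eif2s3x and Eif2s3y, the Eif2ak kinases and the Eif4ebp binding proteins. The rule found 58 genes among the 16738 genes of the white fat table and the same 58 among the 15363 genes of the brown fat table. It used symbols only and no measured value. RNA was sequenced from the inguinal fat pad (iWAT, a white depot under the skin of the groin) of C57BL/6 mice that were fed a high-fat diet at room temperature. The 12 libraries fall into 4 groups of 3, which are KO females, KO males, WT females and WT males, where KO stands for loss of NDUFS4, a subunit of respiratory complex I, from adipocytes, and WT for wild type. The sources used here do not give the promoter that drives the deletion, the age of the mice or whether animals were pooled, and a fat depot also holds cells other than adipocytes, which an adipocyte deletion does not target.

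The values are those of the authors' deposited tables, which compare the KO effect between the sexes: the log2 KO over WT change in females minus the log2 KO over WT change in males, called the interaction below. Its sign rests on the order of the sexes in the name of the tables. An interaction of -1 means that the KO over WT ratio of females was 0.5 times that of males, and a change in KO females, one in KO males and a difference between the sexes of WT mice can each produce it. Values of single libraries were not used here, because their column names match no label, so the effect within a sex, the levels by group and the depth of each library are not given. Errors are standard errors of the authors' limma fit, 95% intervals were computed from them, and a gene was called at an adjusted p of 0.05 over all genes of its table. The labels do not say whether libraries are separate animals, so each p-value reflects only the spread among libraries. In bulk tissue, fewer cells of a type and less RNA per cell cannot be told apart.

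As background, initiation starts when eIF2 carries the initiator tRNA to the small ribosomal subunit, eIF4 proteins bind the mRNA cap, and eIF3 joins both, after which eIF1, eIF1A and eIF5 help to select the start codon. Elongation then depends on eEF1A, which delivers aminoacyl-tRNA, on the eEF1B complex, which recharges eEF1A with GTP, and on eEF2, which moves the ribosome along. Several elongation factor mRNAs, eIF3 subunits E, F and H and the ribosomal protein mRNAs begin with a terminal oligopyrimidine (TOP) tract in human cells, a run of C and U behind an initial C, by which mTORC1 and LARP1 set their translation.

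In white fat the KO effect on Eef1b2, which encodes the exchange factor subunit eEF1B alpha, was lower in females than in males, by an interaction of -1.16 ± 0.27 (standard error) per the authors' deposited table. Eef1b2 was the single translation factor gene that passed the threshold, with an adjusted p of 0.0361 from limma. Among the members that did not pass, Eif3f, Eef1g, Eef2, Eif3e, Eif4a3 and Eef1d lay below 0 at an unadjusted p of 0.05. At the same unadjusted p, Eif3j1, Eif2b5, Eif3b, Eif4e3 and Eif5a lay above 0. Of these, Eif3j1 came nearest to passing (adjusted p = 0.0509 from limma). In all, 1 of 58 genes was called below 0, against 3.69% of all genes, and 0 of 58 were called above 0, against 1.06% of all genes. The share of called members was thus no higher than that of all genes. Both directions together, 4.75% of all genes were called and 1 of 58 members (1.72%). At an unadjusted p of 0.05, 12 of 58 members passed (20.7%), 7 below 0 and 5 above, where 24.5% of all genes did so, 12.6% below 0 and 11.9% above. The median interaction was 0.10 over the 58 members and 0.13 over all genes of the table, with 36 members above 0 (55.9% of all genes were) and 22 below. With that 0.13 subtracted, 27 members lay above 0 and 31 below.

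**Figure D1:**
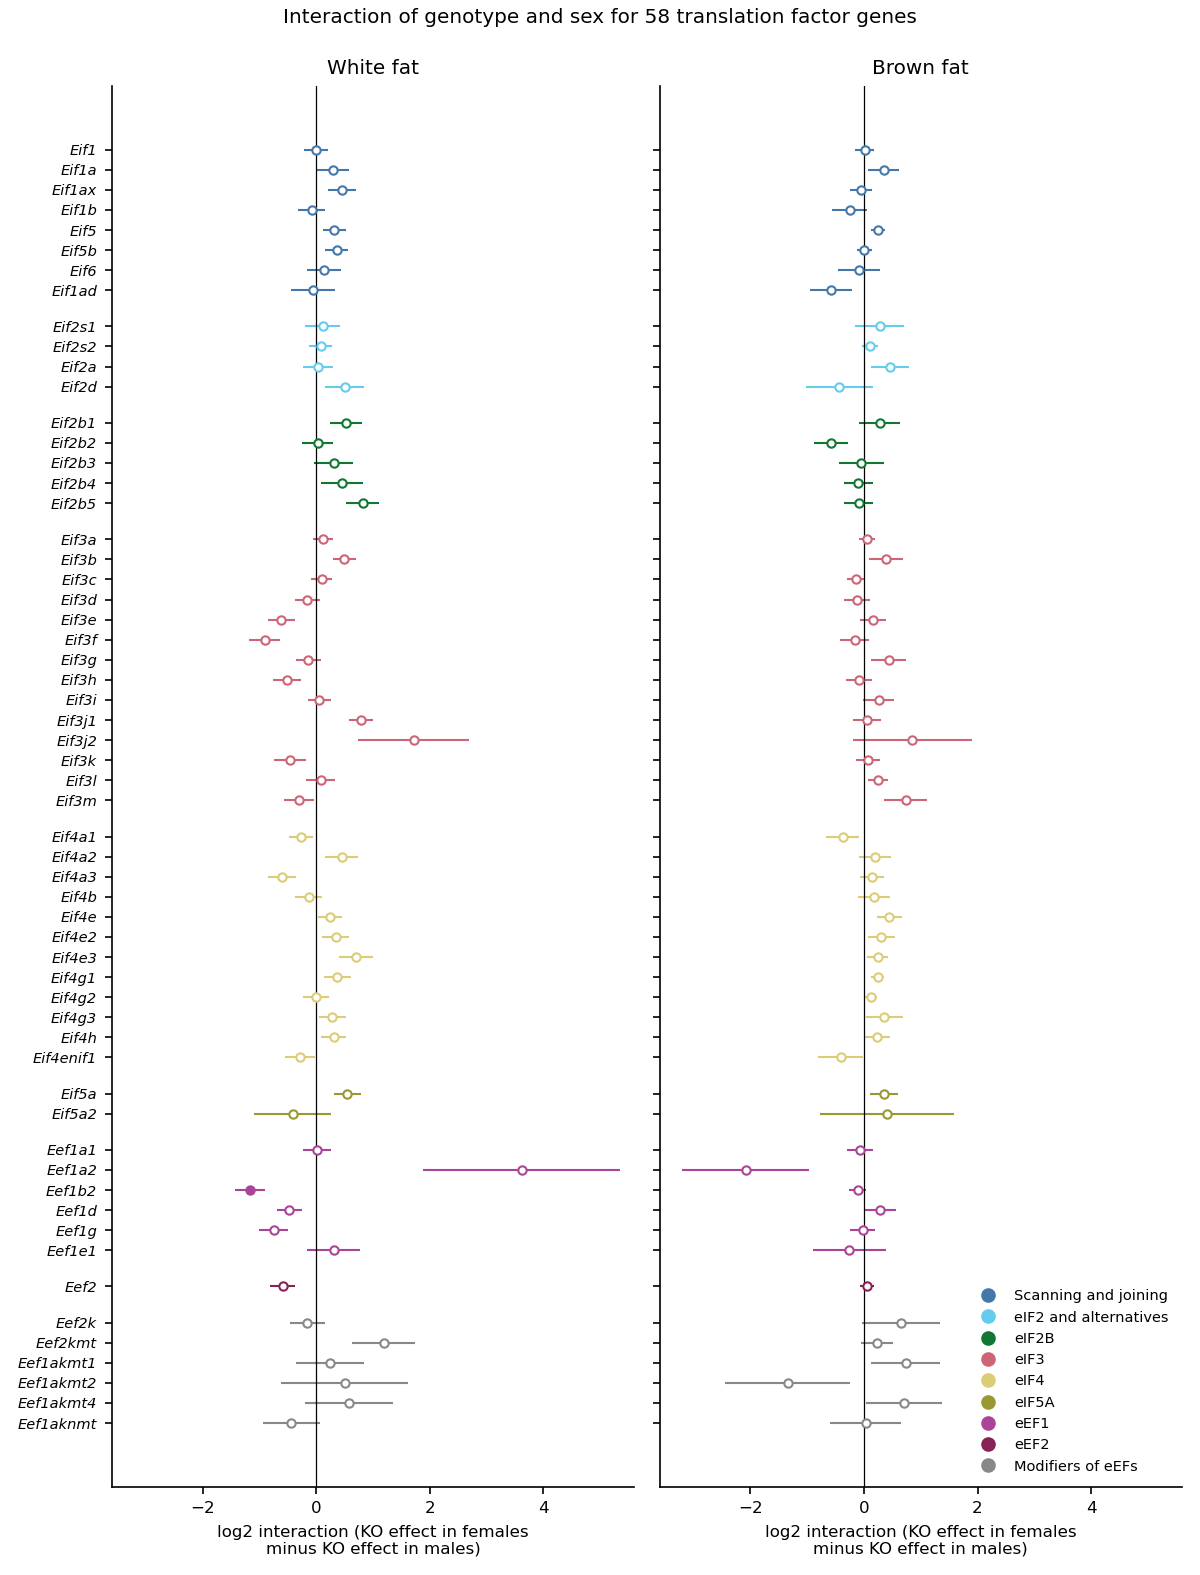
The log2 interaction (x axis) of each of the 58 translation factor genes (rows, grouped and coloured by role) in white fat (left) and brown fat (right), as points with bars of 1 standard error of the authors' fit. A filled point is past an adjusted p of 0.05, which holds for Eef1b2 in white fat and for no gene in brown fat, and the widest bars belong to genes of low mean expression such as Eef1a2 and Eif3j2.

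The precision of the fit sets what could be called. The smallest absolute t called in white fat was 3.74, and the median standard error of the 58 members was 0.25, so a member of median precision needed an interaction of 0.95 on the log2 scale (a 1.93-fold difference between the KO over WT ratios of the sexes) to pass. For 32 of the 58 members the 95% interval lay wholly between -1 and 1 in white fat, so a 2-fold difference lies outside the interval of those genes, while the intervals of the other 26 reach past -1, past 1 or past both. A mean log2 expression below 3.32, which is log2 of 10, was found for 6 members in white fat, and their standard errors were between 0.60 and 1.73, against 0.18 to 0.56 for the other 52.

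**Figure D2:**
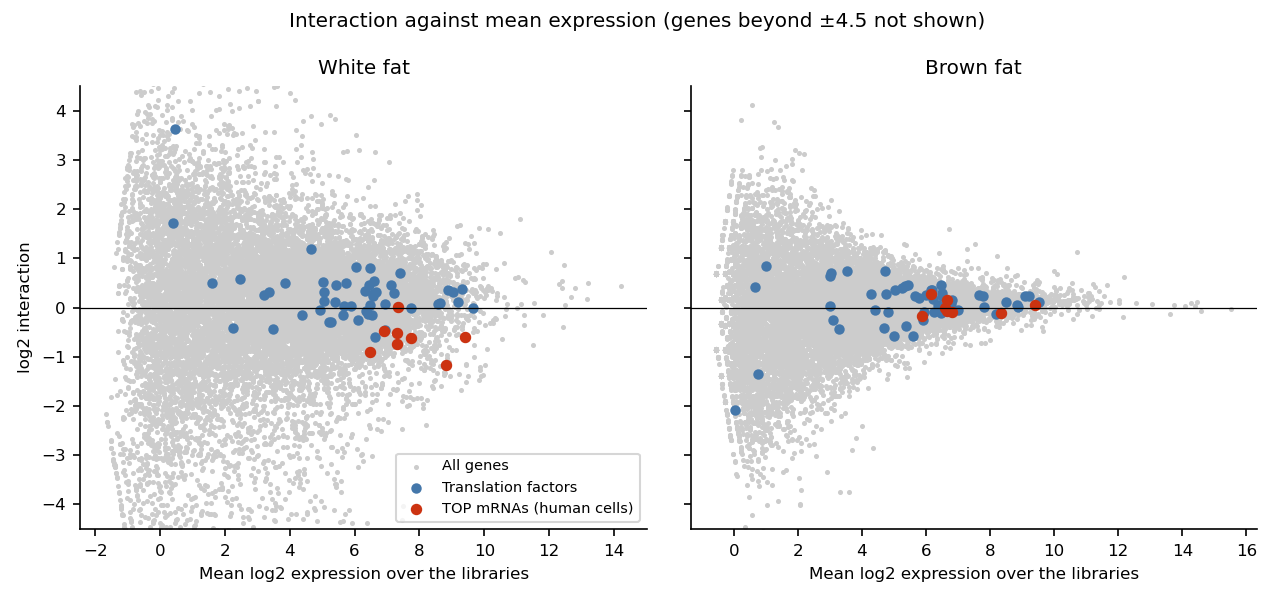
The log2 interaction (y axis) against the mean log2 expression over the libraries (x axis), in white fat (left) and brown fat (right). All genes are grey and the translation factor genes blue. Red points are 8 translation factor genes listed as TOP mRNAs in human cells, a list drawn up after the values were seen. Eif4b, which wider lists of TOP mRNAs hold, is blue. In white fat 7 of the 8 red points lie below 0 at mean expression between 6.46 and 9.39, and in brown fat all 8 lie between -0.16 and 0.28.

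Annotated start sites are shown for 6 of these genes, 4 that are TOP mRNAs in human cells and, for comparison, the initiation factor genes Eif3j1 and Eif2b5 with interactions above 0. Each line holds 30 bases, 10 before the RefSeq start and 20 from it on (build GRCm38.p6, coding strand, 5′ to 3′), and capitals mark the longest run of C and T that begins with C, where it has at least 5 letters.
Eef1b2: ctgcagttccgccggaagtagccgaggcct
Eif3f: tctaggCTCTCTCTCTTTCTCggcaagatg
Eef2: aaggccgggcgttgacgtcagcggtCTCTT
Eef1a1: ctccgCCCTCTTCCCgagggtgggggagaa
Eif3j1: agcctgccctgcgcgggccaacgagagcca
Eif2b5: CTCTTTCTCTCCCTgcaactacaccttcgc
The windows are chr1:63176821-63176850 (plus strand) for Eef1b2, chr7:108934405-108934434 (plus) for Eif3f, chr10:81176621-81176650 (plus) for Eef2 and chr9:78481705-78481734 (minus) for Eef1a1. Those of Eif3j1 and Eif2b5 are chr2:122028570-122028599 (plus) and chr16:20498807-20498836 (plus). A run of at least 5 such letters, searched on the coding strand, was present in 16 of the 46 members with a start in the RefSeq table and in 35.8% of 32851 windows of the same length. The 46 members have 60 windows, and a member was counted if any of its windows held a run. The first count is thus of genes and the second of single windows, so they are not directly comparable. Such a run stood in Eif2b5, which lay above 0 in white fat, and not in the window of Eef1b2. Relative to the RefSeq start, the run of Eif2b5 began at -10 and that of Eef2 at 15. The search did not require a run to begin at the first base of the mRNA, and start sites in these fat depots were not measured. It therefore cannot show whether an mRNA has a TOP tract, for Eef1b2 and Eif2b5 included.

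Eef1b2 had the lowest interaction of the 58 members in white fat, ahead of Eif3f and Eef1g. In the deposited coordinates, which are on GRCm39, Eef1b2 (ENSMUSG00000025967.17) spans chromosome 1, 63215984 to 63219645, plus strand. Its KO over WT ratio in females was 0.447 times that in males (95% interval 0.301 to 0.664), and by p it ranked 320 among the 16738 genes. Eef1g, the gamma subunit that anchors the eEF1B complex, was at -0.75 ± 0.26 (adjusted p = 0.0971) per the authors' deposited table. Eef1d, the delta subunit with an exchange domain of its own, was at -0.47 ± 0.22 (adjusted p = 0.201) per the authors' deposited table. Eef1d overlaps Naprt on the same strand, and Naprt was at 1.89. Mean log2 expression was 2.43 for Naprt and 6.91 for Eef1d. All 3 subunits of the exchange complex therefore lay below 0, and 1 passed. Eef2, the translocase (chromosome 10, 81012465 to 81018332), was at -0.59 ± 0.22 (adjusted p = 0.125) per the authors' deposited table. Ndufs1, a subunit of complex I, overlaps Eef1b2 on the opposite strand and had an interaction of 1.15 per the authors' deposited table; the sources used here do not give the strand setting of the counting, so reads of the overlap cannot be assigned with certainty.

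Eef1a1 and Eef1a2 encode near-identical forms of the tRNA carrier eEF1A. The widely expressed Eef1a1 was at 0.01 ± 0.25 (95% interval -0.53 to 0.54) per the authors' deposited table, apart from the other elongation factors. Many processed pseudogenes resemble Eef1a1, and how the counting treated reads shared between copies is not given. Eef1a2, the form of muscle and neurons, had the highest interaction of all members, 3.62 ± 1.73 (adjusted p = 0.215), at a mean log2 expression of 0.47 per the authors' deposited table. Its interval, -0.11 to 7.35, includes 0. All 7 skeletal muscle markers (Acta1, Ckm and Myh4 among them) lay above 0 in the same table, between 1.84 and 4.59 with 0 called. Their standard errors were 1.39 to 2.92, and all 7 intervals include 0. In brown fat, Eef1a2 was at -2.09 ± 1.12 (adjusted p = 0.790) per the authors' deposited table and all 7 muscle markers lay below 0, between -4.64 and -1.27. Standard errors of the markers were 1.39 to 2.66 there, and 4 of the 7 intervals include 0. Eef1a2 thus had the sign of the muscle markers in each depot, and the part of muscle RNA in its value was not tested. Eef1e1, which despite its name works in the complex of aminoacyl-tRNA synthetases, was at 0.31 ± 0.47 per the authors' deposited table.

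The 14 measured genes of eIF3, the largest initiation factor and the platform for the others, had 0 called in either direction in white fat and a median of -0.04, with 7 above 0 and 7 below on the deposited scale, and 3 above and 11 below with the median of all genes subtracted. Below 0, Eif3f was at -0.90 ± 0.27 (adjusted p = 0.0674), Eif3e at -0.61 ± 0.24 (adjusted p = 0.135) and Eif3h at -0.52 ± 0.24 (adjusted p = 0.207) per the authors' deposited table. Eif3k and Eif3m followed at -0.46 ± 0.28 and -0.30 ± 0.26 per the authors' deposited table. These 5 subunits belong to the PCI and MPN domain core of eIF3 together with Eif3a, Eif3c and Eif3l, which were at 0.12 ± 0.18, 0.09 ± 0.18 and 0.08 ± 0.25 per the authors' deposited table. Of the 8 genes of that core, 3 lay above 0 and 5 below on the deposited scale, and all 8 below with the median of all genes subtracted. Eif3b, the core subunit with an RNA-binding domain, was at 0.50 ± 0.21 (adjusted p = 0.165) per the authors' deposited table. Eif3j1, a loosely bound subunit that acts at the mRNA channel, lay furthest above 0 among eIF3 genes of high expression, at 0.79 ± 0.21 with an adjusted p of 0.0509 per the authors' deposited table. When p was adjusted over protein-coding genes alone its adjusted p was 0.0483, and when values were taken relative to the median of all genes it was 0.0829, so its call turns on that choice. The remaining subunits Eif3d, Eif3g and Eif3i lay between -0.15 and 0.06 with intervals that include 0. Eif3j2, another copy with a mean log2 expression of 0.40, was at 1.72 ± 0.98 per the authors' deposited table; the copies are alike in sequence, and Eif3j1 also overlaps Spg11 on the opposite strand, so both values are uncertain.

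A set of 8 members whose human counterparts are TOP mRNAs cuts across these complexes. This list (Eef1a1, Eef1b2, Eef1d, Eef1g, Eef2, Eif3e, Eif3f and Eif3h) was drawn up after the values were seen, so its values are a description without a test. Its median interaction in white fat was -0.60, with 7 of 8 below 0, 6 of 8 below 0 at an unadjusted p of 0.05 (12.6% of all genes) and 1 called below 0 (3.69% of all genes). Over the other 50 members the median was 0.24, with 15 below 0, 1 of them past an unadjusted p of 0.05, and 35 above, 5 of them past it. The 81 cytosolic ribosomal protein genes, the largest class of TOP mRNAs, had a median of -1.17, and 54 of them were called below 0, against the same 3.69% of all genes. Eef1b2 lay within 0.01 of the median of the ribosomal protein genes and the other 7 lay above it. Wider lists of TOP mRNAs also hold Eif4b and Pabpc1, which were at -0.13 ± 0.24 and 0.08 ± 0.24 per the authors' deposited table. T cell and B cell markers lay below 0 in the same table: all 8 T cell markers were called below 0 (range -9.15 to -5.16), as were 4 of 8 B cell markers, whose 8 values all lay between -11.43 and -5.22. These markers had low mean log2 expression, between -0.62 and 3.92, and Cd79a, a defining B cell gene, the lowest. Their part in the values of the translation factors was not tested.

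Among genes of the cap-binding eIF4 group, 7 of 12 lay above 0, 5 below and 0 were called, with a median of 0.26. The scaffold proteins that bridge cap and ribosome were at 0.37 ± 0.24 for Eif4g1, -0.01 ± 0.23 for Eif4g2 and 0.28 ± 0.24 for Eif4g3 per the authors' deposited table. The cap-binding proteins rank as Eif4e3, Eif4e2 and Eif4e, at 0.70 ± 0.30, 0.34 ± 0.23 and 0.24 ± 0.21 per the authors' deposited table, and these values lie within 2 standard errors of one another. Eif4e3 overlaps Gm20696 on the same strand, and Gm20696 was at -2.62. Mean log2 expression was 3.40 for Gm20696 and 7.39 for Eif4e3. Eif4a1 and Eif4a2, alternative forms of the helicase that unwinds the leader of an mRNA, were at -0.26 ± 0.21 and 0.45 ± 0.29 per the authors' deposited table, on opposite sides of 0 with both intervals including 0. Eif4a3, a relative of these helicases that works in the exon junction complex and not in initiation, was at -0.60 ± 0.25 (adjusted p = 0.156) per the authors' deposited table. Eif4b and Eif4h, which assist the helicase, and Eif4enif1, which carries eIF4E into the nucleus, lay between -0.29 and 0.31. Eif4a3 lay below 0 at an unadjusted p of 0.05 and is not on the TOP list described above, which was drawn up after the values were seen.

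The eIF2 and eIF2B genes, on which the integrated stress response acts, had 0 called in white fat. On the deposited scale all 9 lay above 0, and with the median of all genes subtracted 5 lay above and 4 below (Eif2a, Eif2s1, Eif2s2 and Eif2b2). eIF2B recharges eIF2 with GTP, and phosphorylated eIF2 blocks it. The 5 eIF2B genes had a median of 0.46 in white fat, led by the catalytic epsilon subunit Eif2b5 at 0.82 ± 0.30 (adjusted p = 0.116) and the alpha subunit Eif2b1 at 0.52 ± 0.29 (adjusted p = 0.277) per the authors' deposited table. Eif2b2, the beta subunit, was at 0.03 ± 0.27, with Eif2b3 and Eif2b4, the gamma and delta subunits, at 0.31 ± 0.34 and 0.46 ± 0.36 per the authors' deposited table. The subunits of eIF2 itself were at 0.12 ± 0.31 for Eif2s1, the subunit that carries the regulatory phosphorylation, and 0.08 ± 0.21 for Eif2s2 per the authors' deposited table. Eif2a and Eif2d, which can bring initiator tRNA without eIF2, were at 0.03 ± 0.26 and 0.50 ± 0.34 per the authors' deposited table. Each overlaps a gene of higher mean expression on the opposite strand, Serp1 (-0.57) for Eif2a and Rassf5 (-3.52) for Eif2d.

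The 8 genes of start codon selection and subunit joining stayed close to 0, with 0 called and every 95% interval between -1 and 1. Eif5, which triggers GTP hydrolysis by eIF2, and Eif5b, which joins the ribosomal subunits, were at 0.32 ± 0.20 and 0.36 ± 0.20 per the authors' deposited table. Eif1 and its paralog Eif1b, gatekeepers of the start codon, were at -0.01 ± 0.21 and -0.08 ± 0.24 per the authors' deposited table. The paralogs Eif1a and the X-linked Eif1ax were at 0.30 ± 0.28 and 0.45 ± 0.25 per the authors' deposited table, with overlapping intervals. Eif1ad, a nuclear relative of eIF1A, was at -0.06 ± 0.38 per the authors' deposited table. Eif6, which keeps the large subunit from joining too early, was at 0.14 ± 0.30 per the authors' deposited table. Eif5a, the factor that frees stalled ribosomes once it carries the amino acid hypusine, was at 0.55 ± 0.24 (adjusted p = 0.174), and its low paralog Eif5a2 at -0.41 ± 0.68 per the authors' deposited table.

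Enzymes that modify the elongation factors had wide errors. Eef2kmt, a methyltransferase of eEF2, was at 1.19 ± 0.56 (adjusted p = 0.206) per the authors' deposited table, and it overlaps Alg1 on the opposite strand. Eef2k, the kinase that inactivates eEF2, was at -0.16 ± 0.31 per the authors' deposited table. The methyltransferase genes of eEF1A, Eef1akmt1, Eef1akmt2, Eef1akmt4 and Eef1aknmt, lay between -0.44 and 0.58 per the authors' deposited table with standard errors of 0.50 to 1.12, so a shift of 2-fold in either direction lies within the intervals of Eef1akmt1, Eef1akmt2 and Eef1akmt4, and one of 2-fold downward within that of Eef1aknmt (-1.51 to 0.63).

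In brown fat no translation factor gene was called by limma (0 of 58, against 0.013% of all genes), and 1 of 58 (1.72%) passed an unadjusted p of 0.05, against 6.51% of all genes (3.33% above 0 and 3.18% below). That gene was Eif4g1, at 0.24 ± 0.12 (adjusted p = 0.764) per the authors' deposited table. The median of the 58 was 0.11 and that of all genes 0.01, with 37 members above 0 (51.0% of all genes were) and 21 below. Since the labels name no brown fat libraries, the groups behind that table are not described here, and the tables were normalised separately, so their values are set side by side without a test. Eef1b2 was at -0.11 ± 0.15 (95% interval -0.41 to 0.19) in the authors' deposited brown fat table, Eif3f at -0.16 ± 0.26, Eef1g at -0.02 ± 0.22 and Eef2 at 0.05 ± 0.12. The 8 TOP members had a median of -0.04 there, with 3 above 0 and 5 below, and the 81 ribosomal protein genes a median of 0.00. T cell markers were mostly not listed in the brown fat table, which holds 2 of the 8, and it holds 4 of the 8 B cell markers. The adipocyte gene Adipoq had mean log2 expression of 11.12 in white fat and 10.35 in brown fat, and the brown fat gene Ucp1 4.36 and 12.54, per the authors' deposited tables.

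Some members had the same sign in both tables and others had opposite signs. Taken as counts, 24 of the 58 lay above 0 in both tables, 9 below 0 in both, 12 above 0 in white fat alone and 13 above 0 in brown fat alone. The same counts over all genes are not given here, so these are a description only. Of the eIF2B genes, 5 of 5 lay above 0 in white fat (4 of 5 with the median of all genes subtracted) and 1 of 5 in brown fat, where Eif2b2 had the lowest value of the group, -0.58 ± 0.29 (adjusted p = 0.774) per the authors' deposited table. Eif3m was at 0.74 ± 0.38 (adjusted p = 0.782) and Eif5 at 0.24 ± 0.13 (adjusted p = 0.784) in brown fat per the authors' deposited table. Among the cap-binding genes 10 of 12 lay above 0 in brown fat (51.0% of all genes did), with Eif4e at 0.45 ± 0.22 (adjusted p = 0.764) per the authors' deposited table.

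**Figure D3:**
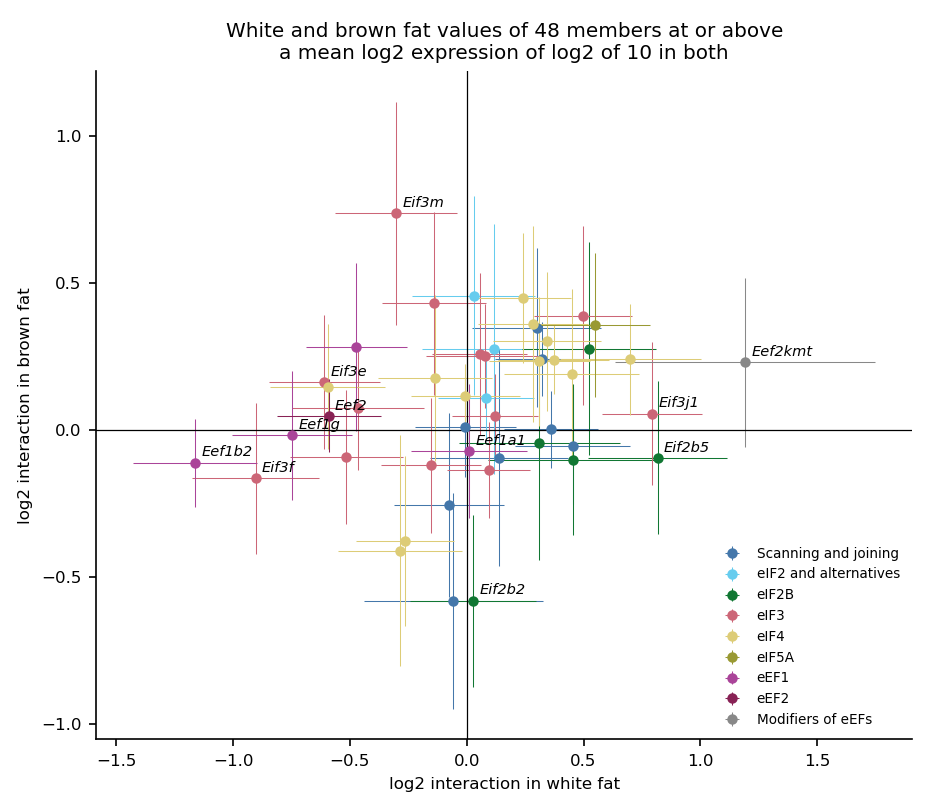
The log2 interaction in white fat (x axis) and brown fat (y axis) of the 48 translation factor genes whose mean log2 expression is 3.32 (log2 of 10) or more in both, as points with bars of 1 standard error, coloured by role. Eef1b2, Eif3f, Eef1g and Eef2 lie left of 0 by 0.59 to 1.16 in white fat and between -0.16 and 0.05 in brown fat.

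Genes that act on these factors were read from fixed lists. In white fat the mitochondrial translation factors, which serve the ribosomes inside mitochondria, lay above 0 (10 of 10, or 8 of 10 with the median of all genes subtracted; median 0.84), and 1 was called above 0, against 1.06% of all genes. That gene, Gfm1, the mitochondrial elongation factor G, was at 1.89 ± 0.50 (adjusted p = 0.0487) per the authors' deposited table, and relative to the median of all genes its adjusted p was 0.0558. The cytosolic counterpart Eef2 and the mitochondrial Gfm1 thus had opposite signs, and their difference was not tested. In brown fat the median of the mitochondrial factors was 0.12, with Gfm1 at -0.01 ± 0.25 per the authors' deposited table.

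No gene of the other lists passed in white fat, and at an unadjusted p of 0.05 the mTORC1 list had 5 of 10 genes, all above 0, where 11.9% of all genes passed above 0. Mtor, the kinase itself, was at 1.08 ± 0.41 and Deptor, its inhibitor, at 0.70 ± 0.27 (adjusted p = 0.130 each) per the authors' deposited table. Of the 10 genes of the mTORC1 list, 7 lay above 0 and 3 below. Those below were Rptor at -0.28 ± 0.34, Mlst8 at -0.22 ± 0.30 and Tsc1 at -0.13 ± 0.36. The mRNA of Larp1, which binds TOP mRNAs, was at 0.39 ± 0.25 and that of Pabpc1, the main poly(A)-binding protein, at 0.08 ± 0.24 per the authors' deposited table. Pabpc4, another poly(A)-binding protein, was at 1.37 ± 0.39 (adjusted p = 0.0577) and Gspt1, a termination factor, at 0.78 ± 0.23 (adjusted p = 0.0628) per the authors' deposited table. Among the 4 kinases of eIF2, the values lay between -0.20 and 0.59 in white fat, with 0 called. Eif4ebp1, which sequesters eIF4E, was at 0.70 ± 0.28 (adjusted p = 0.142) and Eif4ebp2 at 0.16 ± 0.26 per the authors' deposited table. The enzymes that put hypusine on eIF5A, Dhps and Dohh, were at -0.41 ± 0.55 and 0.91 ± 0.53 per the authors' deposited table. In brown fat 0 genes of these lists were called, against 0.013% of all genes. At an unadjusted p of 0.05, where 6.51% of all genes passed, Pabpc4 (0.43 ± 0.20) and Dohh (0.62 ± 0.29) lay above 0 in brown fat. Below 0 at that p were the eIF2 kinase gene Eif2ak3 (-1.79 ± 0.67) and the termination factor gene Etf1 (-0.44 ± 0.19).

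**Figure D4:**
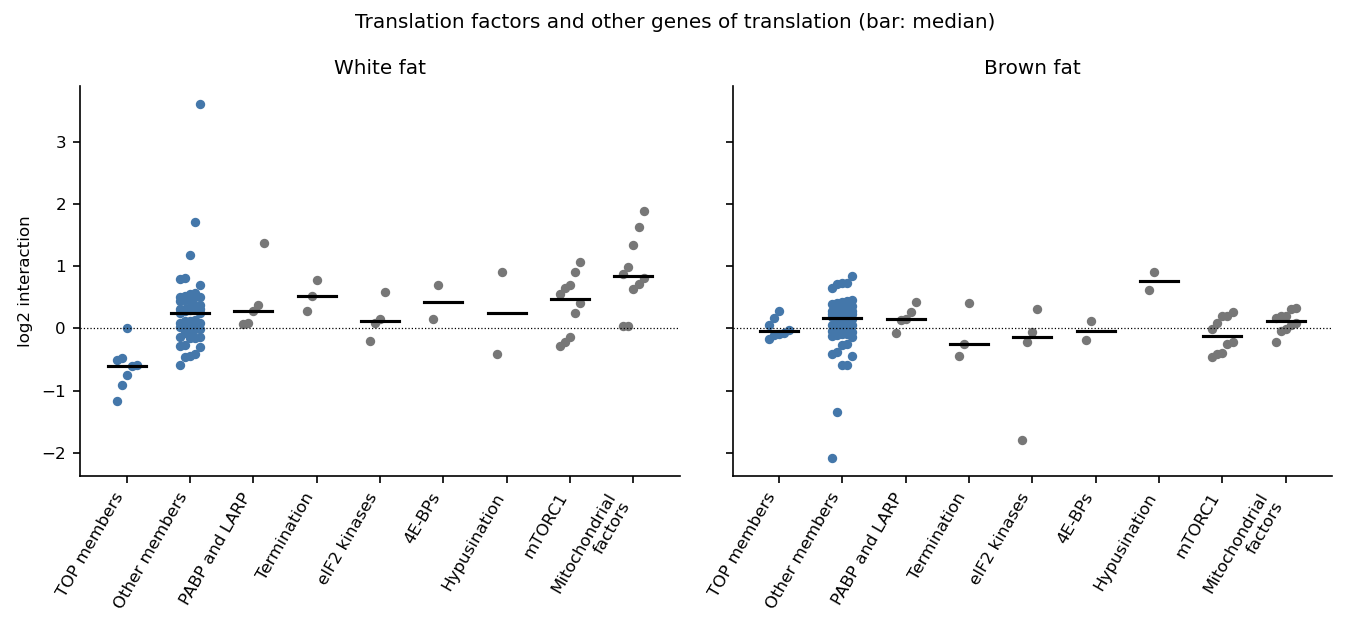
The log2 interaction (y axis) of single genes (points) with the median of each list (bar) in white fat (left) and brown fat (right), for the 8 TOP members, the other 50 translation factor genes and 7 lists of related genes. The list of TOP members was drawn up after the values were seen. In white fat the TOP members have a median of -0.60 and the mitochondrial factors one of 0.84, against -0.04 and 0.12 in brown fat.

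The targeted gene and the other tissue markers were read from the same tables. Ndufs4 was at 0.89 ± 0.38 (adjusted p = 0.169) in white fat per the authors' deposited table, which compares its change between the sexes and so does not check the genotype labels. Of the other marker lists in white fat, adipocyte genes had a median of 0.45 (8 of 8 above 0), thermogenic genes 3.23 (6 of 6), mammary epithelial genes 1.74 (5 of 5), endothelial genes 0.48 (3 of 4) and macrophage genes -0.07 (2 of 6), with 0 called in each.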

How the data were processed

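The submitters' processing notes name featureCounts for counting, limma for testing and the build GRCm39; the sources used here do not give versions, aligner, annotation, normalisation or strand setting. The authors' deposited tables hold log2 interactions and mean log2 expression, a moderated t score, and p-values with their adjusted values. The deposited adjusted p equals the Benjamini-Hochberg adjustment over the table. In the 4 tables, 48 columns of library values match no label and were used in no step, so depth is unknown and no library was left out in turn.

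The standard error is the interaction divided by t. Intervals used 13.4 (white fat) and 33.9 (brown fat) degrees of freedom, recovered from t and p. No gene was filtered out. The steps for the standard error, the degrees of freedom and the adjusted p were tested on simulated data of independent genes. That test does not check the sign of the interaction or the lists of genes.

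Members, lists and alternatives were chosen with earlier results of these data known; no set test was run. Genes were named if called, if of smallest p in their role group in either table, or if in a fixed paralog pair. The other members named, and single genes of the related lists, were chosen after their values were seen. Start sites come from RefSeq (GRCm38.p6), whose table matched 46 of 58 members. Scripts ran in Python 3.11.15 (matplotlib 3.10.9, scipy 1.17.1, pandas 2.3.3, numpy 2.4.6).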

Additional observations from a re-analysis of the deposited data

Results flagged for a closer look

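The KO effect differed between the sexes in white fat for 2 genes described here, by the interaction test over all genes. Eef1b2 had an interaction of -1.16 (adjusted p = 0.0361 from limma) and the mitochondrial elongation factor gene Gfm1 one of 1.89 (adjusted p = 0.0487, or 0.0558 with the median of all genes subtracted, which ends its call), both per the authors' deposited table. Values within each sex were not analysed here, so how many libraries show either direction is not known.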

How the results depend on the processing

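No paired analysis was possible because the library columns carry no sample names, so the replicate block and the runs without a replicate were not made. The count of called translation factor genes in white fat was 1 as reported and 4 at a threshold of 0.10 (12.1% of all genes passed there). It was 2 with genes of mean log2 expression under log2 of 10 left out and 2 with protein-coding genes only. The share of all genes called under these 2 restrictions is not given here. With the median over all genes subtracted it was 2, and 960 of all 16738 genes were called, against 795 as reported. The added gene was Eif3j1 under both restrictions and Eif3f (-1.03, adjusted p = 0.0438) once values were taken relative to the median. Eef1b2 passed under all 4 settings (adjusted p 0.0272 to 0.0361), which were limma values adjusted again. With the median subtracted Gfm1 lost its call (adjusted p = 0.0558). Without the eIF3 genes the count was 1 and the median 0.24, against 0.10 as reported, and with core factors only they were 1 and 0.10. With that median subtracted, the median of the 58 in white fat turned to -0.025, and 9 members turned below 0 in white fat, Eef1a1 (-0.12), Eif2a (-0.10), Eif2b2 (-0.10), Eif2s1, Eif2s2, Eif3a, Eif3c, Eif3i and Eif3l (between -0.08 and -0.01), as did Eif1 (-0.0025) and Eif5b (-0.0095) in brown fat; all 11 are within 1 standard error of 0. Then 27 members lay above 0 and 31 below, and all 8 TOP members below. In brown fat 0 were called under every setting run. Depth is unknown, so no limit from it can be given.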
